A study of Mus musculus with 10 samples.

Results

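Nuclei of the mouse hippocampus that carry Adarb2 together with Vip or Cnr1 are described here, 183 of 15560 nuclei with at least 500 unique molecular identifiers (UMIs, the tags by which captured transcript molecules are counted once). Members were chosen by their own measured UMIs of 11 genes. A nucleus was taken if it had at least 2 UMIs of Gad1 and Gad2 together, at least 3 of Adarb2 and no fewer of Adarb2 than of Nxph1 and Lhx6 together. It also needed at least 2 UMIs of Vip and Cnr1 together, more of them than of Lamp5, Ndnf and Sv2c together, and none of Zic1. Members are called Vip/Cnr1 nuclei. They made up 1.18% of all nuclei (95% exact binomial interval 1.01 to 1.36), 11.7% of the 1563 nuclei with Gad1 and Gad2 (10.2 to 13.4) and 29.8% of the 614 Adarb2 nuclei that met the first conditions (26.2 to 33.6). The hippocampus was that of WT mice of strain C57B/6J, 4 to 7 months old, without stimulation. The labels name 10 samples of this 1 group, 4 of them titled RNASET2 controls. The deposited matrix carries 7 barcode suffixes, called sets here, which the labels do not assign to samples. The data are therefore 1 sample without replicates, and no p-value is given. All intervals cover counting error only.

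Hippocampal GABA neurons arise in the embryonic ganglionic eminences. Those of the caudal eminence carry Adarb2, an RNA-binding protein of the ADAR family, while those of the medial eminence carry the transcription factor Lhx6. Among caudal cells, some release vasoactive intestinal peptide (Vip) and mainly inhibit other interneurons. Others are cholecystokinin (Cck) basket cells, whose axon terminals carry the CB1 cannabinoid receptor (gene Cnr1) and contact the cell bodies of pyramidal neurons. A further group, the neurogliaform cells, carries Lamp5. In what follows, Vip nuclei are members with at least 2 Vip UMIs, and Cnr1 nuclei are members with at least 2 Cnr1 UMIs and no Vip. The comparison classes are 139 Lamp5 nuclei, with the same Adarb2 condition but led by Lamp5, Ndnf and Sv2c, and 753 Nxph1/Lhx6 nuclei, the GABA nuclei led by those medial genes.

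The peptide genes Vip and Cck distinguish the best known cells of this kind, and the sequences around their starts are shown for that reason. Both are RefSeq promoters on GRCm38.p6, from 250 bases before to 50 after the start, at chr10:5638968-5639267 on the + strand and chr9:121495645-121495944 on the − strand. Capitals mark matches to TATAAA or to TGACG, the core of the cAMP response element (CGTCA where it lies on the other strand).
Vip: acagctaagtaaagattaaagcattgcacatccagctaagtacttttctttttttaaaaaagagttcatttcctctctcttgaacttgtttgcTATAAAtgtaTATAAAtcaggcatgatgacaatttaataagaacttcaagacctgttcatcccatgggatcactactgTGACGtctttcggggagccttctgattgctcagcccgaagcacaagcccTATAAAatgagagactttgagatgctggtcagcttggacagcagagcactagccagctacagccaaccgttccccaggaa
Cck: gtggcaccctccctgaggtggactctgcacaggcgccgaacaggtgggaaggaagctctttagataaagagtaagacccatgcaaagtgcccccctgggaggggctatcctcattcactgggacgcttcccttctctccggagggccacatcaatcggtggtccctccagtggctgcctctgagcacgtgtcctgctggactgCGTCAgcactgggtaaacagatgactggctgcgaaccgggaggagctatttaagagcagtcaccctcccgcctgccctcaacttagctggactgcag
The Vip window held TGACG at −79 and TATAAA at −157, −147 and −30 from the start, and the Cck window held the core on its opposite strand at −47. The palindrome TGACGTCA, which contains the core on both strands, was in neither window. Searched on both strands, TGACG was in 20.8%, TATAAA in 13.6% and TGACGTCA in 1.79% of 32851 promoter windows of this length. These letters describe the windows and say nothing of binding.

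Members came from sets 1 to 6, with 43, 38, 45, 30, 18 and 9 nuclei. Set 7 held 0. Their share of the nuclei with Gad1 and Gad2 was 10.8, 10.7, 15.4, 15.7, 10.1 and 6.12% in sets 1 to 6, so sets 3 and 4 were highest and set 6 lowest. Members had a median of 9698 UMIs (range 1166 to 37244), with set medians between 2965 and 10701 and the low values in sets 5 and 6. Lamp5 nuclei had a median of 9181 UMIs and Nxph1/Lhx6 nuclei one of 8376. No member's barcode sequence occurred in another set. Doublets were not removed; the Scrublet caller marked 4 members, but it marked under 0.5% of nuclei in sets 2, 5, 6 and 7 and is not taken to have worked there.

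**Figure D1:**
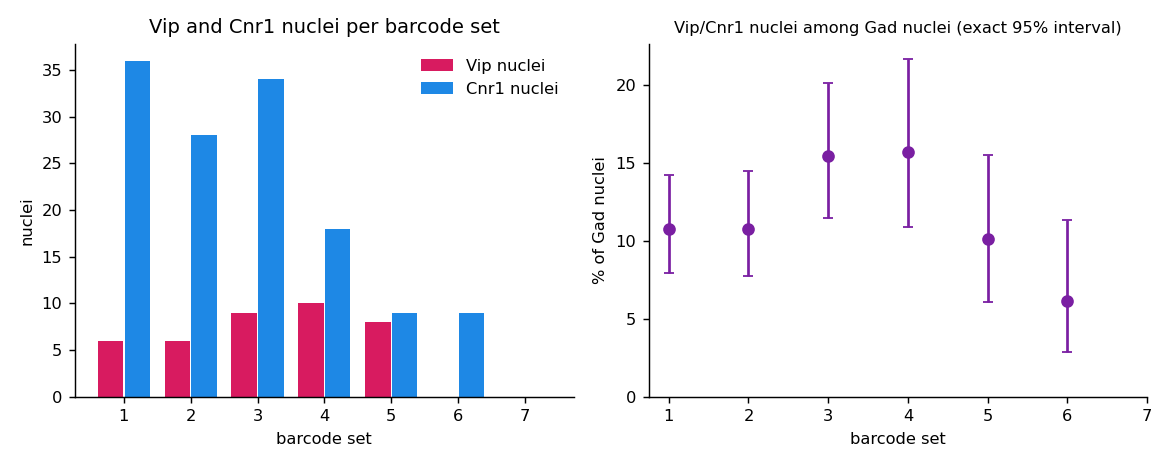
Numbers of Vip and Cnr1 nuclei in each barcode set (left), and members as a percentage of nuclei with Gad1 and Gad2 in sets 1 to 6 (right, bars are 95% exact binomial intervals). Members reach 15.4 and 15.7% in sets 3 and 4, while set 6 is lowest at 6.12% and holds 0 Vip nuclei.

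The genes of the rule are given as a description, since they chose the nuclei. Members carried a median of 4 UMIs of Gad1 and Gad2 together, the enzymes that make GABA, and a median of 106 UMIs of Adarb2, against 24 in Lamp5 nuclei and 0 in Nxph1/Lhx6 nuclei. The medial genes Nxph1 or Lhx6 were seen in 70 of 183 members (38.3%) and in 88 of 139 Lamp5 nuclei (63.3%). Cnr1 was seen in 179 of 183 members (97.8%) and Vip in 49 (26.8%), and 45 members carried both. Vip was seen in 0 of 139 Lamp5 nuclei, in 5 of 753 Nxph1/Lhx6 nuclei (0.664%) and in 29 of 3261 excitatory nuclei (0.889%). Cnr1 was seen in 27.3% of Lamp5 nuclei, in 30.3% of excitatory nuclei and in 2.13% of oligodendrocyte nuclei. At the thresholds, 37 members had just 2 UMIs of Vip and Cnr1 together, while 47 nuclei that met all other conditions had 1. Members with just 2 UMIs of Gad1 and Gad2 numbered 41, and 32 otherwise fitting nuclei had 1. For Adarb2, 2 members lay at 3 UMIs and 1 other nucleus at 2. In 9 members Vip and Cnr1 exceeded Lamp5, Ndnf and Sv2c by 1 UMI, 6 nuclei were left out by a tie, and 8 by a Zic1 UMI.

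By Klhl1, Sox6 and Npas3, set 1 did not match the label as well as the other sets, which bears on every pooled value. Klhl1, a kelch-family protein that binds actin, had 335 CPM (UMIs of the gene per 1000000 UMIs of the group) in members of set 1, and 4.53, 11.6, 20.9, 0 and 0 CPM in sets 2 to 6. Sox6, a transcription factor of medial eminence neurons, had 360.2 CPM in set 1 and 2.27, 32.8, 2.98, 26.7 and 35.6 CPM in sets 2 to 6. Set 1 lay far above every other set for both genes. At least 2 UMIs of Klhl1 and Sox6 together were found in 20 of 43 members of set 1 (46.5%), against 4 of 140 members of sets 2 to 6 (2.86%). Lamp5 nuclei had the same in 8 of 30 nuclei of set 1 (26.7%), against 8 of 109 of sets 2 to 6 (7.34%), and Nxph1/Lhx6 nuclei in 38.1% of set 1 against 50.9%. The cut of 2 UMIs and the choice of these genes were made after their values were seen. None of those 20 nuclei had a UMI of Vip, Npas1 or Htr3a, and 7 had one of Npas3, whereas Npas3 was seen in 21 of the other 23 members of set 1 and in 140 of 140 members of sets 2 to 6. Npas1, a transcription factor of caudal interneurons, was seen in 11 of 43 members of set 1 (25.6%) and in 79 of 140 members of sets 2 to 6 (56.4%). At least 1 UMI of Npas1, Prox1, Nr2f2 or Sp8, all factors of the caudal eminence, was in 18 of 43 members (41.9%) of set 1 against 108 of 140 (77.1%). Set 6 came near set 1 in both, with Npas1 in 3 of 9 members and any of these factors in 4 of 9. Npas1 was also seen in fewer nuclei of set 1 than of sets 2 to 6 among Lamp5 nuclei (0 of 30 against 10 of 109). Among Nxph1/Lhx6 nuclei it was 10 of 113 against 83 of 640. Lhx8, a factor of medial and septal cholinergic lineages named here after its values were seen, was in 11 of 43 members of set 1 and 0 of 140 of sets 2 to 6. No cell type name is given to the nuclei of set 1 with Klhl1 and Sox6.

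**Figure D2:**
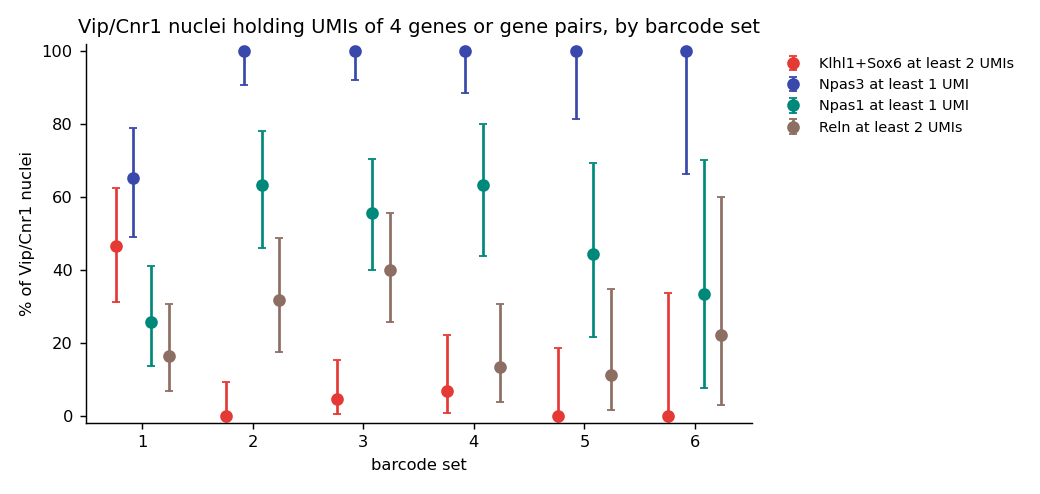
Percentage of members with at least 2 UMIs of Klhl1 and Sox6 together, at least 1 of Npas3, at least 1 of Npas1 and at least 2 of Reln, by barcode set (bars are 95% exact binomial intervals). Set 1 is highest for Klhl1 and Sox6, at 46.5%, and lowest for Npas1, at 25.6%, and for Npas3, which all members of sets 2 to 6 carry.

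Among 3342 genes with at least 100 UMIs over these members, outside the rule, 140 (4.19%) were at least 2-fold higher in set 1 than in sets 2 to 6 and 160 (4.79%) at least 2-fold lower. Part of this was shared by other cells of set 1. Gm5624 had 0 CPM in members of set 1 against 300.2 CPM in sets 2 to 6, and also 0 against 295 CPM in Lamp5 nuclei and 0 against 287 CPM in Nxph1/Lhx6 nuclei. Zfhx3, a homeobox factor, had 339 against 28.6 CPM in members, 700 against 66.9 CPM in Lamp5 nuclei and 435 against 89.4 CPM in Nxph1/Lhx6 nuclei. Klhl1 had 67.5 against 17.4 CPM in Lamp5 nuclei and 73.0 against 27.6 CPM in Nxph1/Lhx6 nuclei, so it too was higher in set 1 in these classes. Sox6 did not share this pattern, with 6.14 against 44.9 CPM in Lamp5 nuclei and 222 against 406 CPM in Nxph1/Lhx6 nuclei. The part of set 1 in the pooled results was not tested as a cause; each main count and each named gene that moved is given with and without it.

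Marker RNA of 6 of 7 other cell types was lower in members than in Lamp5 nuclei. The exception was the Cajal-Retzius pair, with 6 UMIs (3.13 CPM) in members against 4 UMIs (2.82 CPM). Among the 6, the vascular genes had 2 UMIs in members (1.04 CPM) and 2 UMIs in Lamp5 nuclei (1.41 CPM), too few to tell a difference. Excitatory marker genes summed to 31.8 CPM in members, against 140 CPM in Lamp5 nuclei and 35.2 CPM in Nxph1/Lhx6 nuclei. Oligodendrocyte markers summed to 241 CPM (48.2 to 1189 over the sets), against 666 and 273 CPM in Lamp5 and Nxph1/Lhx6 nuclei. The astrocyte gene Gja1 and the endothelial genes Flt1 and Cldn5 had 0 UMIs in members. Nuclei with at least 2 UMIs of Slc17a7 and Slc17a6 or at least 5 of myelin genes such as Mbp and Mobp, called mixed-marker nuclei, were 15 of 183 members (8.20%), 39 of 139 Lamp5 nuclei (28.1%) and 55 of 753 Nxph1/Lhx6 nuclei (7.30%).

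Compared with Lamp5 nuclei, the class that shared the Adarb2 condition, members carried more RNA of the transcription factors Npas1 and Npas3 and of Syt6, Cadps2 and Pdzrn3. Of 5138 genes tested, 146 (2.84%) were at least 2-fold higher in members and 214 (4.17%) at least 2-fold lower, around a median log2 ratio of −0.04. Without set 1 (140 members and 109 Lamp5 nuclei) 149 of 4064 were higher (3.67%) and 217 lower (5.34%), and 107 of the higher and 170 of the lower genes were in both lists.

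Npas1 had 52.0, 174.5, 123, 125, 240.4 and 178 CPM in members of sets 1 to 6, against 0, 6.36, 22.1, 70.1, 33.2 and 107 CPM in Lamp5 nuclei. Members were higher within each set, although the members of set 1 lay below the Lamp5 nuclei of sets 4 and 6. Pooled, Npas1 reached 121.5 CPM against 18.4 CPM, a ratio of 6.62 (4.41 to 10.35). A UMI of Npas1 was seen in 49.2% of members, in 7.19% of Lamp5 nuclei, in 12.4% of Nxph1/Lhx6 nuclei and in 2.15% of excitatory nuclei, which had a median of 10449 UMIs. With each nucleus thinned to 1000 UMIs these shares were 10.4, 2.16, 2.79 and 0.215%. The ratio to Lamp5 nuclei was 6.18 without set 1, and log2 2.12 without set 2 against 2.73 with all sets. It was log2 2.08 without mixed-marker nuclei. Npas3, which like Npas1 encodes a bHLH-PAS factor, had 1570, 3578, 4773, 4400, 2911 and 4911 CPM in members of sets 1 to 6, against 374.5, 403, 773, 1489, 779 and 1709 CPM in Lamp5 nuclei. Members exceeded Lamp5 nuclei within each set, while the members of set 1 lay below the Lamp5 nuclei of set 6, and pooled values were 3495 and 641 CPM.

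Syt6, a synaptotagmin gene at chr3:103575231-103645569 (GRCm38, + strand), was the gene with the largest ratio. It had 84.8, 161, 189, 65.5, 227 and 213.5 CPM in members of sets 1 to 6, against 21.5, 2.12, 2.46, 8.76, 0 and 80.1 CPM in Lamp5 nuclei. Within each set members were higher, and across sets only the Lamp5 nuclei of set 6 reached the lowest members, those of set 4. The pooled ratio was 14.7 (8.42 to 27.9), or 27.8 without set 1. Within members Syt6 lay mainly in Cnr1 nuclei (165 CPM, 45.5% of nuclei) rather than Vip nuclei (35.5 CPM, 17.9%). Cadps2, which primes dense-core vesicles for release, had 786, 1142, 1110, 646, 734.5 and 747 CPM in members against 190, 110, 54.0, 254, 66.3 and 26.7 CPM in Lamp5 nuclei. No set of the Lamp5 nuclei reached the lowest set of the members, and the pooled ratio was 7.74 (6.61 to 9.11). Cadps2 overlaps Rnf133 and Rnf148 on the same strand in GENCODE M21, so reads of these genes may not be told apart.

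The remaining genes with the largest ratios to Lamp5 nuclei were Lama3, a laminin chain (53.7 against 5.65 CPM), Pdzrn3, a ubiquitin ligase with PDZ domains (364 against 41.6 CPM), Epb41l4a (131 against 16.2 CPM) and Pde5a, a cGMP phosphodiesterase (140 against 18.4 CPM). Rgs12, a regulator of G-protein signalling, had 148 against 23.3 CPM, Elfn1, a synaptic adhesion protein, had 52.1 against 8.47 CPM, and the kinase gene Stk32a had 121.5 against 21.9 CPM. All 10 were higher in members in each of the 6 sets. Without set 2, the log2 ratio of Lama3 was 3.91 against 3.25 with all sets, and without set 3 that of Syt6 was 3.27 against 3.87.

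Genes lower in members than in Lamp5 nuclei were led by Chst9, a sulfotransferase (18.8 against 163 CPM), Hapln1, a link protein of the extracellular matrix (7.82 against 62.8 CPM), and Smad3, which carries TGF-beta signals to the nucleus (11.5 against 89.6 CPM). Pde11a, a phosphodiesterase, had 39.1 against 297 CPM, and Cacna2d1, a calcium channel subunit, 203 against 1242 CPM. The other 5 were Slc17a7, the vesicular glutamate transporter of pyramidal cells (14.1 against 90.3 CPM), Slc24a4, Smoc2, Glis3 and Tanc1, with ratios 5.77 to 6.42-fold lower. Hapln1, Smad3, Pde11a, Cacna2d1 and Slc17a7 were lower in members in each of the 6 sets. Chst9, Slc24a4 and Tanc1 were lower in 5 of 6 sets, and Smoc2 and Glis3 in 4 of 6. Slc17a7 partly chose the mixed-marker nuclei, which were more frequent among Lamp5 nuclei. With such nuclei left out, the log2 ratio was −1.56 for Slc17a7 (−2.68 with them), −2.24 for Smad3 (−2.97), −1.75 for Smoc2 (−2.61), −1.46 for Glis3 (−2.53) and −1.50 for Tanc1 (−2.53), all still past 2-fold. Chst9, Pde11a and Cacna2d1 moved the other way, to −4.12, −3.52 and −3.25, and the count of lower genes was 138 in place of 214. Without set 1 the log2 ratio of Pde11a was −3.59 against −2.93 with it, and without set 2 the log2 ratio of Smoc2 was −3.23.

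Compared with Nxph1/Lhx6 nuclei, 153 of 8585 genes tested (1.78%) were at least 2-fold higher in members and 273 (3.18%) at least 2-fold lower, with a median log2 ratio of −0.04. With UMIs per nucleus in place of CPM, 214 were higher and 200 lower. Without set 1 (640 Nxph1/Lhx6 nuclei) 174 of 7773 genes were higher (2.24%) and 356 lower (4.58%), with 131 and 224 genes in both lists. A gene was tested if its UMIs summed over both sides reached a minimum. Members had 1918072 UMIs in total, against 7161479 in Nxph1/Lhx6 nuclei. A gene confined to members thus needed a higher CPM to be tested than one confined to Nxph1/Lhx6 nuclei. The counts of higher and lower genes are therefore not on an equal footing. The comparisons with Lamp5 and with Nxph1/Lhx6 nuclei use the same members. Syt6 was again the first by ratio, with a pooled 134.5 CPM in members against 6.56 CPM in Nxph1/Lhx6 nuclei (ratio 20.5, 14.97 to 28.6). No set of Nxph1/Lhx6 nuclei exceeded 11.9 CPM of Syt6, and no set of members was under 65.5 CPM. Rgs12 had 148 against 7.82 CPM, Cadps2 928.5 against 61.7 CPM and Ntng1, an axonal netrin-G1 membrane protein, 1352 against 91.9 CPM. Stk32b, a kinase gene, had 118 against 13.0 CPM, and Sorcs3, a sorting receptor of the postsynapse, 1101 against 142 CPM. Megf10 (61.5 against 7.96 CPM), Pdzrn3, Cpne2 (59.96 against 9.08 CPM) and Bmper (153 against 25.1 CPM) completed the 10 largest ratios. All were higher in members in each of 6 sets except Cpne2, which was in 5 of 6. With mixed-marker nuclei left out of both classes, the ratio of Megf10 was 32.0 against 7.73 with them.

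The genes lowest in members relative to Nxph1/Lhx6 nuclei were nearly absent from members. Members had 2 UMIs of Moxd1, a monooxygenase, against 375 in Nxph1/Lhx6 nuclei (50.2-fold lower, 13.8 to 416). They had 2 UMIs of Nxph2 against 243, 2 of Crhbp, which binds the stress peptide CRH and marks Sst neurons, against 213, and 1 of Rab38 against 101. Alkal2 (2 against 170 UMIs), Mypn (3 against 162), Mctp2 (12 against 604), Pvalb, the calcium buffer of fast-spiking basket cells (2 against 100), Cdca7 (2 against 99) and Gna14 (5 against 246) followed. Every one was lower in members in all 6 sets. Of the 12 Mctp2 UMIs none lay in sets 2 to 6, so without set 1 Mctp2 was at least 41.2-fold lower at the floor of 3 UMIs, against 13.5-fold (7.66 to 26.2) with it. Without mixed-marker nuclei the log2 ratio was −6.56 for Moxd1 and −4.58 for Cdca7. Without set 1, it was −6.26 for Moxd1, −2.86 for Rab38 and −2.68 for Pvalb. Leaving out other sets moved 8 values by more than 1.5-fold, and none of the 10 genes changed direction when a set was left out. Without set 2 the log2 ratio was −5.61 for Crhbp, −5.11 for Alkal2 and −4.65 for Gna14. Without set 3 it was −5.70 for Nxph2, −4.07 for Rab38 and −3.25 for Mypn, and without set 4 it was −4.47 for Cdca7 and −6.45 for Moxd1. With all sets these 8 log2 ratios were −4.83, −4.51, −3.72, −5.02, −4.76, −3.85, −3.73 and −5.65.

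**Figure D3:**
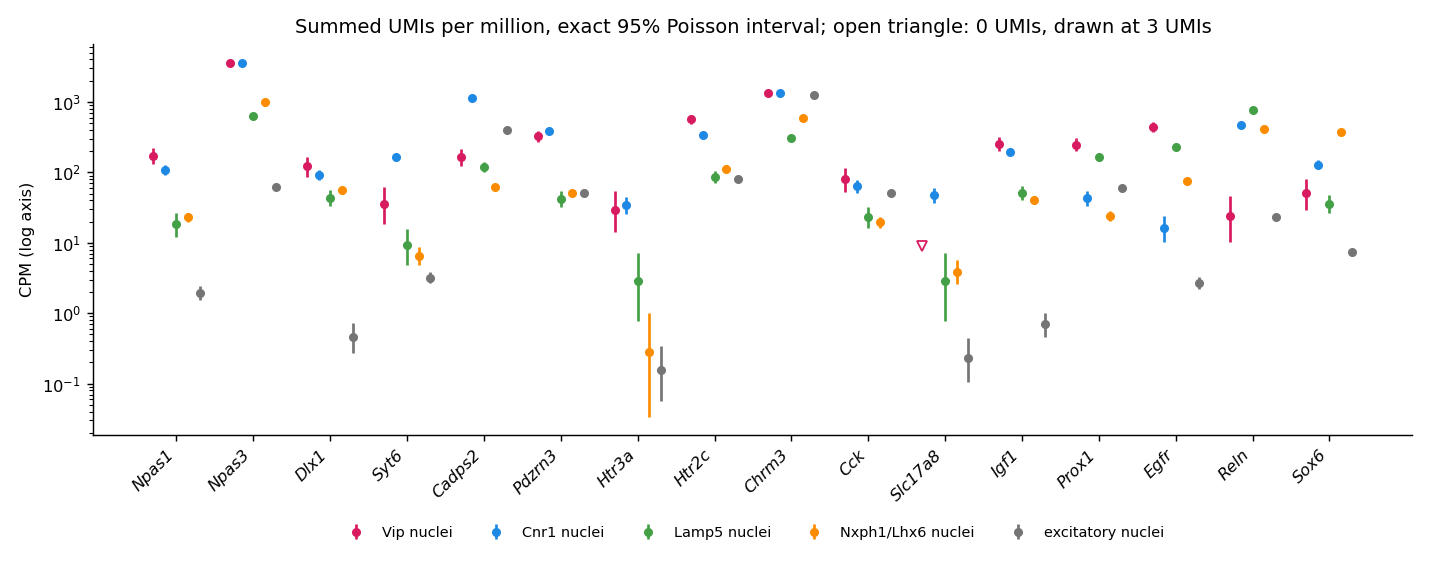
CPM of 16 genes on a log axis in Vip, Cnr1, Lamp5, Nxph1/Lhx6 and excitatory nuclei, with exact 95% Poisson intervals; an open triangle marks 0 UMIs, drawn at 3 UMIs. Npas1 stands at 171 CPM in Vip nuclei and 109 CPM in Cnr1 nuclei, against 18.4 CPM in Lamp5 nuclei and 22.9 CPM in Nxph1/Lhx6 nuclei.

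The lists below were chosen with earlier results of these data known, and genes that did not reach 100 UMIs over both sides were not counted. Without set 1 fewer genes reached it, so a smaller count need not mean a smaller ratio. Of all genes tested, 2.84% were higher and 4.17% lower than in Lamp5 nuclei, and 1.78% higher and 3.18% lower than in Nxph1/Lhx6 nuclei. Among transcription factors of the caudal eminence, 4 of 6 were tested. Against Nxph1/Lhx6 nuclei 3 were at least 2-fold higher in members and 0 lower (median log2 1.59), which were Npas1 (5.31-fold), Prox1 (3.89-fold) and Nr2f2 (2.34-fold). Against Lamp5 nuclei 2 were higher and 0 lower (median log2 0.49; 1 higher of 2 tested without set 1), Npas1 and Nr2f2 (49.0 against 21.2 CPM). Prox1, a homeobox factor kept by most caudal interneurons, had 93.8 CPM in members against 166 CPM in Lamp5 nuclei, a gap that closed to log2 −0.20 without mixed-marker nuclei. Sp8, at 5.74 CPM in members, 2.12 CPM in Lamp5 nuclei and 0.559 CPM in Nxph1/Lhx6 nuclei, was below the minimum in both comparisons. Of the wider GABA lineage list, Dlx1 had 97.5 CPM in members against 43.1 CPM in Lamp5 nuclei, and Dlx6 25.6 CPM against 11.3 CPM in Nxph1/Lhx6 nuclei. Of 5 medial eminence factors tested against Nxph1/Lhx6 nuclei, 3 were lower and 0 higher (median log2 −1.78, and −2.63 without set 1). Among them were Sox6 (109 against 375.5 CPM) and Satb1 (57.4 against 197 CPM). Against Lamp5 nuclei Sox6 and Satb1 were 2 higher of 3 tested, but Sox6 turned to a log2 ratio of −1.51 without set 1.

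Receptors ordered the classes differently from one transmitter to the next. Of 5 serotonin receptors tested, Htr2c was the 1 at least 2-fold higher in members in both comparisons. It had 626, 299, 231, 325, 120 and 178 CPM in members of sets 1 to 6, against 227, 19.1, 31.9, 228, 0 and 0 CPM in Lamp5 nuclei. Pooled, Htr2c reached 365 CPM in members, 86.1 CPM in Lamp5 nuclei and 110.5 CPM in Nxph1/Lhx6 nuclei. Htr1f was lower in both, with 49.5 CPM in members, 99.5 CPM in Lamp5 nuclei and 209 CPM in Nxph1/Lhx6 nuclei. Htr4 was lower than in Lamp5 nuclei (58.4 against 202 CPM), but its log2 ratio was −0.66 without mixed-marker nuclei. Htr3a, the ionotropic serotonin receptor that marks caudal interneurons, did not reach the minimum. It had 25.0, 36.3, 28.9, 53.6, 0 and 71.2 CPM in members of sets 1 to 6. Htr3a was seen in 23.0% of members, in 2.16% of Lamp5 nuclei, in 0.266% of Nxph1/Lhx6 nuclei and in 0.184% of excitatory nuclei, and after thinning in 3.83% of members and 0.0307% of excitatory nuclei. Chrm3, a muscarinic acetylcholine receptor, had 990, 1185, 1750, 1224, 1349 and 1139 CPM in members, against 460.5, 237, 169, 517, 497 and 507 CPM in Lamp5 nuclei, with no overlap between the sets of the classes. Its pooled ratio was 4.19 to Lamp5 nuclei and 2.19 to Nxph1/Lhx6 nuclei, and excitatory nuclei stood at 1268 CPM.

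Of 5 neuropeptide receptors tested against Nxph1/Lhx6 nuclei, Npy1r, a receptor for neuropeptide Y, was higher (34.4 against 6.14 CPM) and the opioid receptor gene Oprd1 was lower (23.98 against 74.6 CPM). Without set 1, 0 of 4 were higher and 1 lower. Against Lamp5 nuclei the opioid receptor gene Oprm1 was 1 lower of 3 (104 against 233 CPM) and 0 were higher. The endocannabinoid enzymes and partners, tested because CB1 helped choose the nuclei, gave 0 of 8 past 2-fold against Nxph1/Lhx6 nuclei (1 lower of 7 without set 1). Of all genes 1.78% were higher and 3.18% lower there, so 0 of 8 does not set the list apart. Against Lamp5 nuclei, 1 of 6 was lower, Dagla, which makes the cannabinoid 2-AG (33.4 against 81.2 CPM).

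Peptides and subtype markers were sparse. Cck had 98.2, 49.9, 44.3, 35.8, 174 and 178 CPM in members of sets 1 to 6, against 21.5, 25.4, 9.82, 17.5, 66.3 and 107 CPM in Lamp5 nuclei and 28.9, 13.1, 14.8, 12.3, 43.6 and 50.8 CPM in Nxph1/Lhx6 nuclei. Members were above both classes within each set, with sets 5 and 6 highest in all classes. Pooled, Cck was 2.82-fold higher than in Lamp5 nuclei and 3.38-fold higher than in Nxph1/Lhx6 nuclei. A Cck UMI was seen in 29.5% of members and in 34.5% of excitatory nuclei (8.74 and 5.92% after thinning), so this share does not set members apart from excitatory nuclei. Necab1, a calcium-binding protein of the Cck basket cell list, had 356 CPM in members, 143 CPM in Lamp5 nuclei and 123 CPM in Nxph1/Lhx6 nuclei. Igf1, a growth factor of Vip neurons in cortex, had 210 CPM in members, 51.5 CPM in Lamp5 nuclei and 40.5 CPM in Nxph1/Lhx6 nuclei. Its log2 ratio to Lamp5 nuclei was 1.39 without mixed-marker nuclei, against 2.03 with them. Of the Vip cell markers, 2 of 2 tested were higher than in Lamp5 nuclei, Igf1 and Gpc3. Against Nxph1/Lhx6 nuclei the same 2 of 3 tested were higher. The other, Mybpc1, was lower, with a log2 ratio of −1.87 (−3.3 to −0.77 over all alternative settings). The other basket cell markers lay below the minimum. They included Cxcl14, a chemokine (29.2, 5.65 and 1.54 CPM in members, Lamp5 and Nxph1/Lhx6 nuclei), and Trp53i11 (26.1, 2.12 and 2.51 CPM). Sst and Pvalb cell markers were lower than in Nxph1/Lhx6 nuclei for 6 of 9 tested and higher for 0 (median log2 −2.27). Without set 1, 4 of 7 were lower (median log2 −1.04). Among the 6 was the peptide Sst itself (10.9 against 68.3 CPM). Against Lamp5 nuclei 2 of 4 tested in this list were higher, Elfn1 and Kcnc2, and 0 lower (median log2 1.23). Without set 1, 1 of 3 was higher than in Lamp5 nuclei (median log2 0.62). Neurogliaform markers gave 3 lower and 0 higher of 4 tested against Lamp5 nuclei (median log2 −1.70; 1 lower of 3 and −0.98 without set 1). These were Hapln1, the receptor kinase Kit (20.9 against 106 CPM) and Reln, a secreted guidance protein (370 against 769 CPM). The log2 ratio of Kit was −3.02 without mixed-marker nuclei, against −2.34 with them. Over all alternative settings, each set left out included, Hapln1 ranged from −3.67 to −2.77 and Kit from −4.25 to −2.12, both past 2-fold throughout. Reln ranged from −1.87 to −0.8.

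Among channels and synaptic proteins most genes lay within 2-fold. The shares of all genes to set beside these lists are 2.84% higher and 4.17% lower against Lamp5 nuclei, and 1.78% and 3.18% against Nxph1/Lhx6 nuclei. Of glutamate receptors, 1 of 21 was lower than in Lamp5 nuclei and 0 higher; this was the NMDA subunit Grin2a (1072 against 3220 CPM). That is 4.76% of the list, near the 4.17% of all genes, and without set 1 the list had 2 higher and 2 lower of 21. Against Nxph1/Lhx6 nuclei 4 of 22 were lower and 0 higher, the AMPA subunits Gria1 (1608 against 4775 CPM) and Gria3 (336 against 1067 CPM), the metabotropic Grm5 (1470 against 3188 CPM) and Grin3a. GABA receptors gave 2 of 13 lower against Lamp5 nuclei and 0 higher (2 lower and 1 higher of 12 without set 1). Potassium channels gave 3 higher and 2 lower of 19 against Lamp5 nuclei, and 3 higher and 1 lower of 21 against Nxph1/Lhx6 nuclei. Without set 1 these were 3 and 1 of 17, and 3 and 1 of 20. Kcnq5, a subunit of the M-current that muscarinic receptors close, was among the higher in both, with 1928 CPM in members, 945 CPM in Lamp5 nuclei and 519 CPM in Nxph1/Lhx6 nuclei. The Kv3 subunit Kcnc2 had 1614 CPM in members against 488 CPM in Lamp5 nuclei. Of 26 synaptic adhesion genes, 6 were higher than in Lamp5 nuclei and 1 lower, with the presynaptic Nrxn3 at 17305 against 5693 CPM and Cntn6 at 384 against 116 CPM. Against Nxph1/Lhx6 nuclei 1 of 27 was higher and 1 lower. Axon guidance genes gave 0 higher and 4 lower of 21 against Lamp5 nuclei, led by Slit3 (243 against 1030 CPM). Of these 4, Epha4 had a log2 ratio of −0.34 without mixed-marker nuclei, against −1.22 with them. Against Nxph1/Lhx6 nuclei the list gave 4 higher and 3 lower of 26, with Slit2 at 45.4 against 317.5 CPM and Sema3e at 88.1 against 27.2 CPM. Without set 1 axon guidance genes gave 1 higher and 2 lower of 19 against Lamp5 nuclei, and 6 higher and 4 lower of 25 against Nxph1/Lhx6 nuclei.

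SETD1B, a methyltransferase for lysine 4 of histone H3 (H3K4), is the subject of the series by its title. Its gene Setd1b had 20.3 CPM in members, 21.2 CPM in Lamp5 nuclei, 17.2 CPM in Nxph1/Lhx6 nuclei and 15.6 CPM in excitatory nuclei. Of the H3K4 methyltransferase genes, 0 of 3 tested against Lamp5 nuclei and 0 of 6 against Nxph1/Lhx6 nuclei were past 2-fold in either direction. Immediate early and plasticity genes likewise gave 0 of 4 and 0 of 5. Of all genes tested, 2.84% were higher and 4.17% lower than in Lamp5 nuclei, and 1.78% and 3.18% than in Nxph1/Lhx6 nuclei. In lists this short, 0 is near those shares and does not set these genes apart. Below the minimum, Bdnf, a growth factor induced by activity, had 11 UMIs in members (5.74 CPM), against 40.2 CPM in Lamp5 nuclei and 3.07 CPM in Nxph1/Lhx6 nuclei. Excitatory nuclei had 39.3 CPM of Bdnf.

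Members were then divided by Vip. Vip nuclei numbered 39 (21.3%), 6, 6, 9, 10, 8 and 0 over sets 1 to 6, and Cnr1 nuclei 134 (73.2%), 36, 28, 34, 18, 9 and 9. A further 10 members with 1 Vip UMI belonged to neither. Of the 39 Vip nuclei 35 also carried Cnr1, and in 12 Cnr1 exceeded Vip. Median UMIs were 7946 in Vip nuclei and 10361 in Cnr1 nuclei. Of 3227 genes tested, 69 (2.14%) were at least 2-fold higher in Vip nuclei and 150 (4.65%) at least 2-fold lower, around a median log2 ratio of −0.07. With UMIs per nucleus in place of CPM, where the median log2 ratio of all genes was −0.43, 34 were higher and 386 lower. Without set 1 (33 Vip and 98 Cnr1 nuclei) 75 of 2313 were higher (3.24%) and 129 lower (5.58%), with 51 and 91 genes in both lists. Vip nuclei had 338399 UMIs in total, against 1490520 in Cnr1 nuclei, and the minimum of UMIs per gene is summed over both. A gene confined to Vip nuclei thus needed a higher CPM to be tested than one confined to Cnr1 nuclei. The excess of lower over higher genes is therefore not read as a difference between the kinds. No set held 20 nuclei on each side, so set values rest on few nuclei.

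Egfr, the epidermal growth factor receptor gene at chr11:16752203-16918158 (GRCm38, + strand), had the largest ratio. It had 366, 335, 336, 711 and 294 CPM in Vip nuclei of sets 1 to 5, against 4.38, 34.1, 2.45, 23.6, 119 and 0 CPM in Cnr1 nuclei of sets 1 to 6. Every set of Vip nuclei lay above every set of Cnr1 nuclei, and the pooled values of 446 and 16.1 CPM gave a ratio of 27.7 (17.9 to 44.6), 21.6 without set 1 and log2 5.47 without set 2. Egfr was seen in 82.1% of Vip nuclei and 8.96% of Cnr1 nuclei, and in 28.2 and 4.48% after thinning. In excitatory nuclei 2.15% carried it, and Lamp5 nuclei stood at 230 CPM, so Egfr was not limited to Vip nuclei. Prox1 had 323, 247, 296, 190 and 177 CPM in Vip nuclei, against 15.3, 56.8, 58.8, 61.4, 0 and 0 CPM in Cnr1 nuclei. The sets of the 2 kinds did not overlap, and the pooled ratio was 5.78 (4.13 to 8.13), or 4.29 without set 1. Npas1 and Npas3 were close in both, at 171 and 3511 CPM in Vip nuclei against 109 and 3613 CPM in Cnr1 nuclei.

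The other genes highest in Vip nuclei were Sema5b, a semaphorin (222 against 22.1 CPM), Glra2, a glycine receptor subunit (201 against 34.9 CPM), Wnt5b, a Wnt ligand (290 against 52.3 CPM), and Svil, an actin-binding protein (219 against 43.6 CPM). Trpc6, a cation channel, had 148 against 33.6 CPM, the cyclin gene Ccnd2 245 against 57.7 CPM, Ust, a sulfotransferase, 281 against 69.1 CPM, and Gpc6, a glypican, 904 against 235 CPM. All were higher in 5 of 5 sets except Wnt5b, in 4 of 5. The ratio of Gpc6 was 5.94 without set 1 and 3.85 with it. The log2 ratio of Trpc6 was 1.52 without set 3, against 2.14.

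Reln had 0, 17.6, 39.5, 20.02 and 29.4 CPM in Vip nuclei of sets 1 to 5, against 239, 636, 677, 340, 178 and 249 CPM in Cnr1 nuclei of sets 1 to 6. No set of Vip nuclei came near the lowest set of Cnr1 nuclei, and pooled Reln was 19.7-fold lower (9.94 to 45.8), or 20.7-fold without set 1. Sgcd, a sarcoglycan, had 258, 617, 237, 150 and 442 CPM in Vip nuclei, against 1749, 2413, 4224, 2959, 3031 and 2954 CPM in Cnr1 nuclei, again without overlap (9.41-fold lower, 7.72 to 11.6). Ntng1 had 0, 52.9, 178, 0 and 795 CPM in Vip nuclei, against 718, 1811, 2285, 2200, 446 and 2633 CPM in Cnr1 nuclei. Set 5 went the other way and moved the value: Ntng1 was 11.6-fold lower (8.72 to 15.8) with all sets, a log2 ratio of −3.54, against −4.60 without set 5 and −2.95 without set 4. It was −5.16 without mixed-marker nuclei.

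The remaining genes lowest in Vip nuclei were Tmem132c (1 against 123 UMIs), Cpne5 (3 against 144 UMIs), Myo5b, a motor protein (0 against 121 UMIs, at least 9.16-fold lower at 3 UMIs), and Hs3st5, a heparan sulfate sulfotransferase (8 against 321 UMIs). Col19a1, a collagen that mouse interneurons lay down at synapses, had 103 against 978 CPM. All of these were lower in Vip nuclei in 5 of 5 sets except Cpne5, in 4 of 5. Klhl1 and Cacna2d2, a calcium channel subunit, also ranked here, and both rested on set 1. Klhl1 was lower in 2 of 5 sets and Cacna2d2 in 4 of 5. Klhl1 was 13.9-fold lower in Vip nuclei with set 1 and had a ratio of 1.06 without it, and Cacna2d2 was 8.17-fold lower with set 1 and 2.43-fold lower without it. Leaving out set 2 or 4 moved Klhl1 to log2 −4.50 and −5.08, against −3.80, and set 2 moved Cacna2d2 to −4.35, against −3.03. Without set 3, log2 ratios were −4.08 for Col19a1, −3.88 for Tmem132c, −2.67 for Cpne5 and −2.11 for Myo5b, against −3.24, −4.80, −3.45 and −3.19 with all sets. Without set 4, Tmem132c was at −4.19 and Myo5b at −2.56, and without set 5 Tmem132c was at −3.06 and Cpne5 at −4.90. Without mixed-marker nuclei Tmem132c was at −2.95 and Hs3st5 at −4.01, against −4.80 and −3.19 with them.

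**Figure D4:**
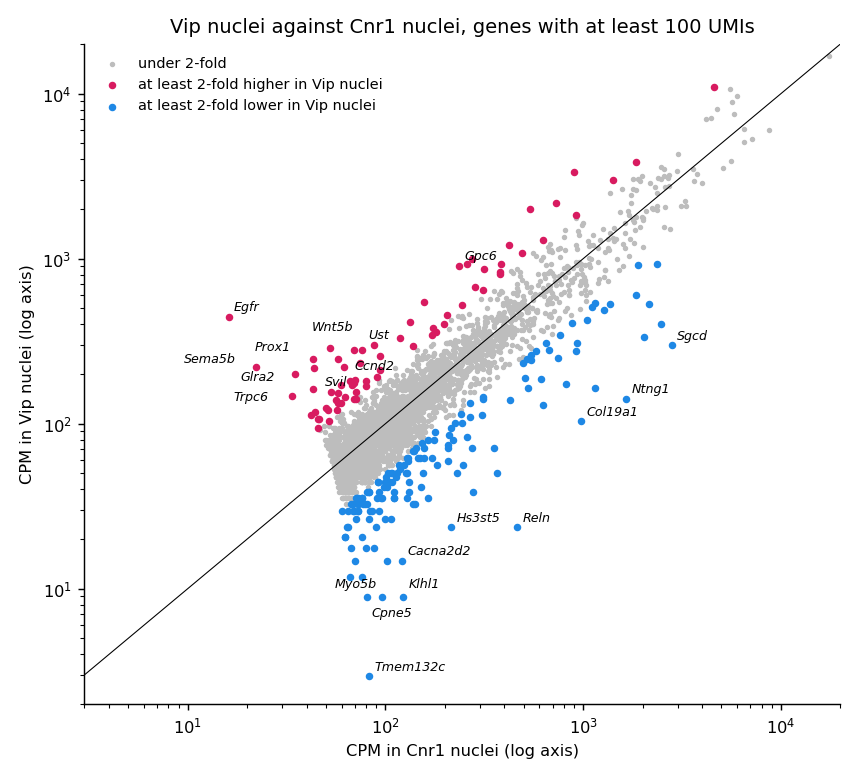
CPM per gene in Vip nuclei (vertical) against Cnr1 nuclei (horizontal), both on log axes, for genes with at least 100 UMIs, colored where past 2-fold; the named genes carry labels, and Myo5b is drawn at 3 UMIs in Vip nuclei. Egfr lies at 446 against 16.1 CPM and Reln at 23.6 against 466 CPM, on opposite sides of the diagonal.

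Several markers were found in Cnr1 nuclei and at 0 UMIs in Vip nuclei, where 0 UMIs allow up to 8.87 CPM (3 UMIs). Slc17a8, the vesicular glutamate transporter VGLUT3 of Cck basket cells, had 15.3, 51.1, 68.7, 56.6, 149 and 35.6 CPM in Cnr1 nuclei of sets 1 to 6, and was seen in 14 of 134 of them (10.4%, 5.97% after thinning). It was seen in 1.44% of Lamp5 nuclei and 0.276% of excitatory nuclei. Krt73, a keratin gene, had 0 UMIs in Vip nuclei and 22.1 CPM in Cnr1 nuclei, in 11 of 134 nuclei, with 0 UMIs in Lamp5 and Nxph1/Lhx6 nuclei. Cck had 79.8 CPM in Vip nuclei and 63.1 CPM in Cnr1 nuclei, a log2 ratio of 0.34. It was −0.42 as the mean of per-nucleus CPM and −1.59 without set 1, so its direction depends on these choices. A Cck UMI was seen in 6 of 39 Vip nuclei (15.4%) and in 44 of 134 Cnr1 nuclei (32.8%), or in 7.69 and 7.46% after thinning. In the other direction, Calb2, which encodes calretinin of interneuron-selective cells, had 8 UMIs in Vip nuclei (23.6 CPM) and 10 in Cnr1 nuclei (6.71 CPM). Penk, the enkephalin precursor, had 29.6 against 11.4 CPM, Tac2 17.7 against 3.36 CPM and Crh 14.8 against 5.37 CPM, all below the minimum.

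Of all genes tested between Vip and Cnr1 nuclei, 2.14% were higher in Vip nuclei and 4.65% lower. Of the lists, caudal factors had 1 higher of 2 tested, Prox1, and medial factors 1 lower of 3, Sox6 (50.2 against 128 CPM), with a log2 ratio of −1.35. That ratio was 3.59 without set 1 and −5.17 without mixed-marker nuclei. Of the Vip cell markers 1 of 2 was higher, Gpc3, a glypican (112 against 42.3 CPM), and 0 of 1 without set 1. Among 20 glutamate receptors 2 were higher, the presynaptic Grm7 (3339 against 899 CPM) and Grm8 (990 against 274 CPM), and 1 lower, Grin2a (538 against 1147 CPM). Among 11 GABA receptors 1 was higher and 1 lower, Gabra2 (189 against 508.5 CPM). Of 3 acetylcholine receptors Chrm2 was lower (38.4 against 276 CPM), with a log2 ratio of −2.85 and one of −6.38 without mixed-marker nuclei. Of 17 cadherins 2 were higher, Cdh10 (928 against 258 CPM) and Pcdh10 (222 against 61.7 CPM), and 3 lower, while without set 1 they were 5 higher and 3 lower of 16. Of 19 axon guidance genes 0 were higher and 3 lower, Ntng1 and the netrin receptors Unc5d (334 against 2036 CPM) and Unc5c (535 against 1372 CPM). Of 23 synaptic adhesion genes 1 was higher, Cntn6 (650 against 313 CPM), and 4 lower, among them Tenm3 (931 against 2352 CPM). The 14 potassium channels had 1 higher, Kcnip4 (10999 against 4592 CPM), and 1 lower, and 0 of 12 sodium, calcium and HCN channels were past 2-fold. Without set 1, synaptic adhesion genes gave 2 higher and 3 lower of 23, axon guidance genes 1 and 3 of 19, and potassium channels 2 and 0 of 13.

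**Figure D5:**
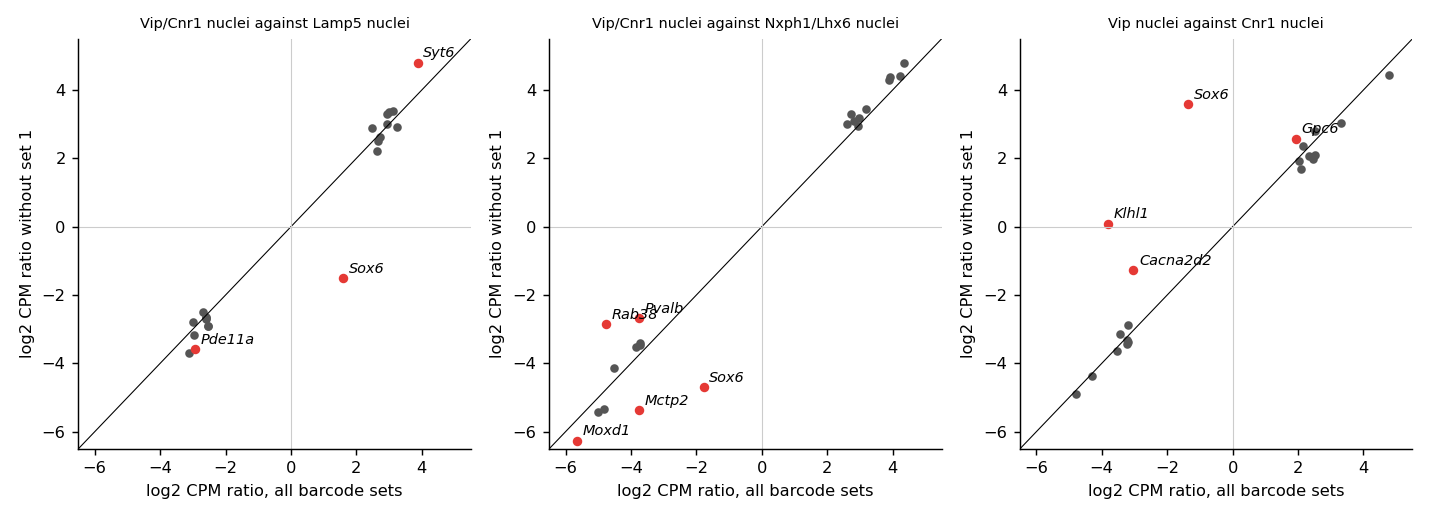
Log2 CPM ratios of the named genes and Sox6 without set 1 (vertical) against those with all sets (horizontal), for the 3 comparisons; red points moved by more than 1.5-fold. Most named genes lie near the diagonal, while Klhl1 lies at 0.09 without set 1 against −3.80 with all sets, and Sox6 changes sign in the left and right panels.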

How the data were processed

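The files hold raw UMI counts per gene and barcode, deposited as 1 matrix without scaling, per the file headers. They were made by the authors with Cell Ranger 4.0.0 on mm10 and GRCm38, per the submitters' processing notes. Intron counting, the annotation release and any barcode filter were not given in the sources used here. This matrix has 24837 genes, 15661 barcodes and 101300889 UMIs. Nuclei came from frozen hippocampus and were sorted with the dye 7AAD before droplet capture, per the labels' protocols. Members and gene lists were chosen with earlier results of these data known.

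For each side of a comparison, UMIs were summed over nuclei and divided by that side's total (CPM). Genes with at least 100 UMIs over both sides, outside the 11 rule genes, were compared at 2-fold, with an exact 95% Poisson interval of the ratio, or a Clopper-Pearson interval for a share. This minimum asks a higher CPM of a gene confined to the side with fewer UMIs. Counts of higher and lower genes are therefore not on an equal footing where the sides differ in total UMIs. A side at 0 UMIs was set to 3 UMIs. The 10 genes of largest ratio in each direction that kept their direction in every set with at least 20 nuclei on each side were named, plus members of the lists. No set met this for Vip against Cnr1 nuclei, so no such condition applied there. Nuclei were thinned to 1000 UMIs for shares. Gene names come from the deposited gene list and coordinates from GENCODE M21. Scripts (Python 3.11.15, scipy 1.17.1, pandas 2.3.3, scanpy 1.11.5 for Scrublet) were tested on simulated data. Alternatives covered scaling, gene minimum, nucleus filters, doublets, mixed-marker nuclei, thinning, a stricter rule and each set left out. A few genes that enter the counts are not reported here by name.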

Additional observations from a re-analysis of the deposited data

Results flagged for a closer look

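Among 21 genes or shares examined over sets 1 to 6, 2 had a highest set that stood apart from the next by more than is seen by chance in about 1 of 20 groups. Both were in set 1 of the Vip/Cnr1 nuclei. Klhl1 had 335.2 CPM there (gap 0.938 of the range), and Sox6 had 360.2 CPM (gap 0.907 of the range).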

How the results depend on the processing

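Counts of genes past 2-fold changed with the minimum of UMIs per gene and with thinning. In the order Lamp5, Nxph1/Lhx6 and Vip against Cnr1, a minimum of 20 UMIs gave 398 higher and 690 lower, 323 and 770, and 368 and 782, while 500 UMIs gave 54 and 66, 71 and 111, and 20 and 38. Thinning to 1000 UMIs per nucleus gave 44 and 39, 60 and 105, and 15 and 30, with fewer genes at the minimum. Without scaling to CPM, Vip against Cnr1 nuclei gave 34 higher and 386 lower, and the median log2 ratio was -0.43, against -0.07. Without mixed-marker nuclei, 138 genes were lower than in Lamp5 nuclei. Leaving out each set gave 110 to 149 higher and 156 to 217 lower against Lamp5 nuclei, 134 to 174 and 228 to 356 against Nxph1/Lhx6 nuclei, and 52 to 75 and 129 to 168 for Vip against Cnr1 nuclei. The members' share was 1.04 to 1.32% with each set left out.

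Direction changed in 7 values of log2 ratios of genes that were past 2-fold before any alternative. Genes under 2-fold also changed sign in some settings and are not among the 7. One was Cck in Vip against Cnr1 nuclei, at 0.34 and from -1.59 to 0.66 over the alternatives. Sox6 against Lamp5 nuclei was -1.51 without set 1 (-1.51 to 2.21 over the sets left out) and -0.58 as the median over sets; in Vip against Cnr1 nuclei Sox6 was 3.59 and Klhl1 0.09 without set 1 (-4.37 to 3.59 and -5.08 to 0.09 over the sets left out). Thinning gave 1.04 for Rab38 and 0.17 for Pvalb against Nxph1/Lhx6 nuclei and -0.22 for Trpc6 in Vip against Cnr1 nuclei; the cause was not tested. Of the named genes, thinning also left under 2-fold, with the same sign, Elfn1 (0.60) against Lamp5 nuclei, Mypn (-0.62), Alkal2 (-0.37) and Cdca7 (-0.28) against Nxph1/Lhx6 nuclei, and Wnt5b (0.40), Tmem132c (-0.22) and Myo5b (-0.09) in Vip against Cnr1 nuclei. Myo5b had 0 UMIs in Vip nuclei, so its thinned value rests on the same floor. Pvalb was at -0.94 as the median over sets. Of the other single-gene values, 1716, 2114 and 1489 stayed close and 298, 278 and 208 moved. The values that stayed close include the minimums of 20 and 500 UMIs per gene, which cannot change a ratio. They also include nucleus filters under which no count of genes past 2-fold changed. The tally therefore overstates how far the ratios were put to a test. No paired analysis was possible because all samples are in 1 group, no replicate numbers tie them to the sets and no result comes from a test; directions within each set are given in its place. Sets 5 and 6 were the shallowest of those with members, and no interval covers differences between animals.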

Other observations

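Further lists chosen with earlier results known were as follows. Of 16 vesicle release genes tested against Lamp5 nuclei, Rab3b was at least 2-fold higher in Vip/Cnr1 nuclei (52.7 against 25.4 CPM) and Syt7, a calcium sensor, lower (63.1 against 205 CPM). Rab3b was lower than in Nxph1/Lhx6 nuclei, where it had 119 CPM, as was Syt2, the fast calcium sensor of Pvalb neurons (11.5 against 55.3 CPM), while Cplx2 was higher (89.2 against 25.4 CPM), among 23 tested. Without set 1, 0 were higher and 1 lower of 15 against Lamp5 nuclei, and 2 and 2 of 23 against Nxph1/Lhx6 nuclei. Of 17 cadherins and protocadherins Cdh4 was higher than in Lamp5 nuclei (104 against 40.2 CPM) and Cdh9 lower (134 against 440 CPM), although Cdh9 had a log2 ratio of -0.92 without mixed-marker nuclei. Against Nxph1/Lhx6 nuclei Cdh11 was higher (485 against 231 CPM) and Cdh9, Cdh12 and Cdh13 were lower, among 19 tested. Without set 1, 3 cadherins were higher and 3 lower of 17 against Lamp5 nuclei, and 1 and 5 of 19 against Nxph1/Lhx6 nuclei. Of 15 sodium, calcium and HCN channels, Scn9a was higher than in Lamp5 nuclei (268.5 against 104 CPM) and Cacna1e lower (259 against 960.5 CPM). Of 19 tested against Nxph1/Lhx6 nuclei, Scn3a (201 against 91.9 CPM) and Cacna1h (21.9 against 9.78 CPM) were higher, and Cacna1a, the P/Q-type channel subunit, was lower (485 against 1157 CPM). Without set 1, 1 was higher and 2 lower of 17.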
